A study of Danio rerio with 16 samples.

Results

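Nuclear RNA of 10 genes of insulin and insulin-like growth factor (IGF) signalling was examined in adult zebrafish hearts: the ligands *igf1*, *igf2a* and *igf2b*, the receptors *igf1ra*, *igf1rb*, *insra* and *insrb*, the adaptors *irs1* and *irs2b*, and the binding protein *igfbp6b*. They were taken by their symbols in the deposited gene tables, and all 10 were found among the 24753 gene symbols that the 4 tables shared. Hearts were wild type (WT) or carried the pt38a/pt38a genotype, described by the series as cited4a mutant, and were either uninjured (UI) or taken 3 days post amputation (3 dpa) of about 20% of the ventricle. The hearts were flash frozen, and isolated nuclei were sequenced as 10x Chromium 3' libraries, in which each captured RNA molecule is counted once by its unique molecular identifier (UMI). The labels listed 16 samples, 4 in each of the 4 groups, but each group was held in 1 matrix whose barcodes did not name the sample. Each group is therefore 1 library with no replicate, no comparison was tested, and all intervals given are exact 95% intervals that cover counting error only.

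Insulin and the IGFs are secreted ligands that bind receptor tyrosine kinases, the insulin receptor and the IGF-1 receptor. The activated receptors phosphorylate insulin receptor substrate adaptors, which recruit PI3-kinase and so switch on AKT and mTOR and keep FOXO transcription factors out of the nucleus. IGF-binding proteins hold the ligands outside the cell, and many zebrafish members of the pathway exist as paired copies, named a and b. In the regenerating zebrafish heart, Igf signalling is known to support cardiomyocyte proliferation, with *igf2b* made by cells other than the muscle.

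A nucleus was kept when it held 500 UMIs or more, of which no more than 5% were mitochondrial. This left 8178 nuclei for the uninjured WT library, 10394 for the amputated WT library, 9932 for the uninjured mutant library and 9140 for the amputated mutant library, with between 10346669 and 18521265 UMIs per library. Values given for the 4 libraries follow that order throughout. *cited4a* stood at 153, 53.7, 32.6 and 370 CPM (the UMIs of a gene at an equal total for every library), so it was highest in a library labelled mutant; the sources used here do not say what the allele removes, and a 3' tag may not report on it. The injury-induced cardiomyocyte gene *ankrd1a* stood at 12.8, 159, 46.8 and 0.677 CPM, higher after amputation in the WT pair and lower in the mutant pair. The macrophage-like share of clustered nuclei ran the same opposite ways, at 6.50%, 9.08%, 14.9% and 1.86%. Whether the matrices of the mutant pair match their labels was not tested, and every direction drawn from that pair rests on those labels. The WT pair shared 136 barcodes, the mutant pair 133, and no barcode was shared across genotypes. The gene tables listed 25432 genes in WT and 27758 in the mutant, so all CPM values were computed over the shared symbols. Those symbols held at least 99.9% of the kept UMIs in the WT libraries, but 89.2% (UI) and 90.7% (3 dpa) in the mutant ones. Levels and ratios compared between genotypes therefore also carry the difference of gene tables, which sharing symbols does not remove. Its part in the count of each gene was not tested. The median gene of those compared had a CPM 1.45 times as high at 3 dpa as UI in WT, and 0.763 times in the mutant. Between genotypes the median gene stood at 1.29 times the WT level in uninjured hearts and 0.668 times at 3 dpa. Directions for each gene over all kept nuclei are therefore also given after trimmed mean (TMM) scaling wherever that scaling turned them. Directions within classes are given before that scaling unless stated, and it may turn those near 1.

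Cell classes were named from marker genes after clustering, and their names carry "-like". Cardiomyocyte-like nuclei numbered 3711, 2276, 4827 and 6092, endothelial or endocardial-like nuclei 1377, 1525, 552 and 1414, fibroblast or epicardial-like nuclei 189, 466, 483 and 163, and macrophage-like nuclei 500, 897, 1398 and 161. The cardiomyocyte-like name rested on a small excess of marker RNA: none of its 4 clusters had a cardiomyocyte marker among its 10 leading genes, and each cluster came mostly from 1 library. Clusters 2, 6, 1 and 0 held most of the class in the 4 libraries. Differences between libraries within the class, unless given within a cluster, are therefore also differences between those clusters. Cluster 0 had a marker excess (log2) of 0.365. Clusters outside the class exceeded it: unnamed clusters 5, 10 and 12, at 0.773, 0.611 and 0.705, and erythrocyte-like clusters 9 and 13, at 0.486 and 0.462. Cardiomyocyte marker RNA was present in every class. Its summed level in the 5 other classes ranged from 0.178 to 0.802 of that in cardiomyocyte-like nuclei, with a median of 0.495 over 20 class and library combinations. A member whose level in another class, relative to cardiomyocyte-like nuclei, was near that marker ratio could not be told apart from carried-over muscle RNA.

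Among the ligands, *igf2b* (ENSDARG00000033307), one of the paired copies of IGF2, was the only one with more than 41 UMIs in a library. Over all kept nuclei its level was 12.1 (10.4 to 13.9), 48.6 (45.5 to 51.9), 35.5 (32.0 to 39.2) and 11.3 CPM (9.35 to 13.6). It was high in the WT 3 dpa and mutant UI libraries and low in the others, and the WT UI and mutant 3 dpa intervals overlapped. The 3 dpa level was 4.03 times the UI level in WT (interval 3.45 to 4.73). The mutant pair stood at 0.319 times (0.257 to 0.393). After TMM scaling these ratios were 2.78 and 0.423. Over whole libraries, more nuclei of a class that holds the RNA and more RNA per nucleus cannot be told apart.

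Of the 6 classes compared, *igf2b* was on average lowest in cardiomyocyte-like nuclei, at 4.58, 15.9, 15.3 and 3.87 CPM, and highest in fibroblast or epicardial-like nuclei. The T or NK lymphocyte-like nuclei of the mutant 3 dpa library, 86 in number, held 0 of its UMIs. In fibroblast or epicardial-like nuclei *igf2b* stood at 60.8 (33.2 to 102), 161 (137 to 187), 70.8 (51.5 to 95.1) and 117 CPM (73.2 to 177), on 14, 164, 44 and 22 UMIs. Endothelial or endocardial-like nuclei held 31.8, 102, 121 and 35.6 CPM, and macrophage-like nuclei 58.2, 92.6, 58.6 and 32.3 CPM. Among the 6 classes, fibroblast or epicardial-like nuclei therefore had the highest level in 3 of 4 libraries. Endothelial or endocardial-like nuclei had it in the mutant UI library. Unnamed clusters, with 19.4%, 31.5%, 6.34% and 3.14% of clustered nuclei, were outside this comparison. The largest of them, cluster 5, held 2403 nuclei of the WT 3 dpa library and had *anxa1a* and *col1a1a* among its leading genes. Its *igf2b* level there was 53.7 CPM (45.2 to 63.2), below that of fibroblast or epicardial-like nuclei. In the mutant UI library unnamed cluster 19, described under other observations, stood above every named class. A source of *igf2b* in unnamed nuclei is therefore not covered by this ranking. In the WT UI library the fibroblast or epicardial-like and macrophage-like levels had overlapping intervals. In all 16 class and library combinations with more than 3 UMIs, the *igf2b* level relative to cardiomyocyte-like nuclei lay above the ratio of the cardiomyocyte markers. It was 1.96 to 30.2 times the cardiomyocyte-like level, and its interval lay above the marker ratio in 16. Combinations with fewer UMIs were left out. With *igf2b* on average lowest in cardiomyocyte-like nuclei, this outcome was largely set beforehand. It concerns carried-over muscle RNA only, and free *igf2b* RNA from other cells was not tested.

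The share of nuclei with an *igf2b* UMI was compared after every nucleus was thinned to 500 UMIs. It was 2.65%, 7.73%, 3.52% and 4.67% of fibroblast or epicardial-like nuclei and 0.162%, 0.615%, 0.760% and 0.265% of cardiomyocyte-like nuclei. In erythrocyte-like nuclei, taken as a class that should lack it, the thinned share was 3.12%, 1.54%, 1.66% and 1.03%. The cardiomyocyte-like share lay below the erythrocyte-like share in all 4 libraries, so it could not be told apart from background. Whether these nuclei hold a low level of their own was not tested. Before thinning, 5.82%, 21.5%, 7.66% and 12.3% of fibroblast or epicardial-like nuclei had a UMI, at median depths of 853, 1599, 1039 and 904 UMIs against 1399, 765, 690 and 554 in erythrocyte-like nuclei. The WT UI fibroblast or epicardial-like share was below the erythrocyte-like one, so by this measure it could not be told apart from background either. That erythrocyte-like share rested on 32 nuclei.

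The opposite ratios of *igf2b* in the WT and mutant pairs were also present inside the larger classes. Its 3 dpa over UI ratio was 3.48 in WT and 0.253 in mutant cardiomyocyte-like nuclei. By the share above, the level there could not be told apart from background. In endothelial or endocardial-like nuclei the WT ratio was 3.20 (2.25 to 4.67) and the mutant ratio 0.293 (0.195 to 0.437). Clusters 3 and 7 of this class held 157 and 354 nuclei in mutant UI, against 23 and 1390 in mutant 3 dpa. The mutant ratio therefore also compares different mixes of clusters. The part of free *igf2b* RNA in the ratios of this class was not tested. Fibroblast or epicardial-like nuclei did not follow: the WT ratio was 2.64 (1.53 to 4.94), and the mutant ratio was 1.65 (0.942 to 2.81), an interval that holds 1. The WT ratio in that class was under 2 when nuclei with up to 10% mitochondrial UMIs were kept, at 1.79.

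**Figure D1:**
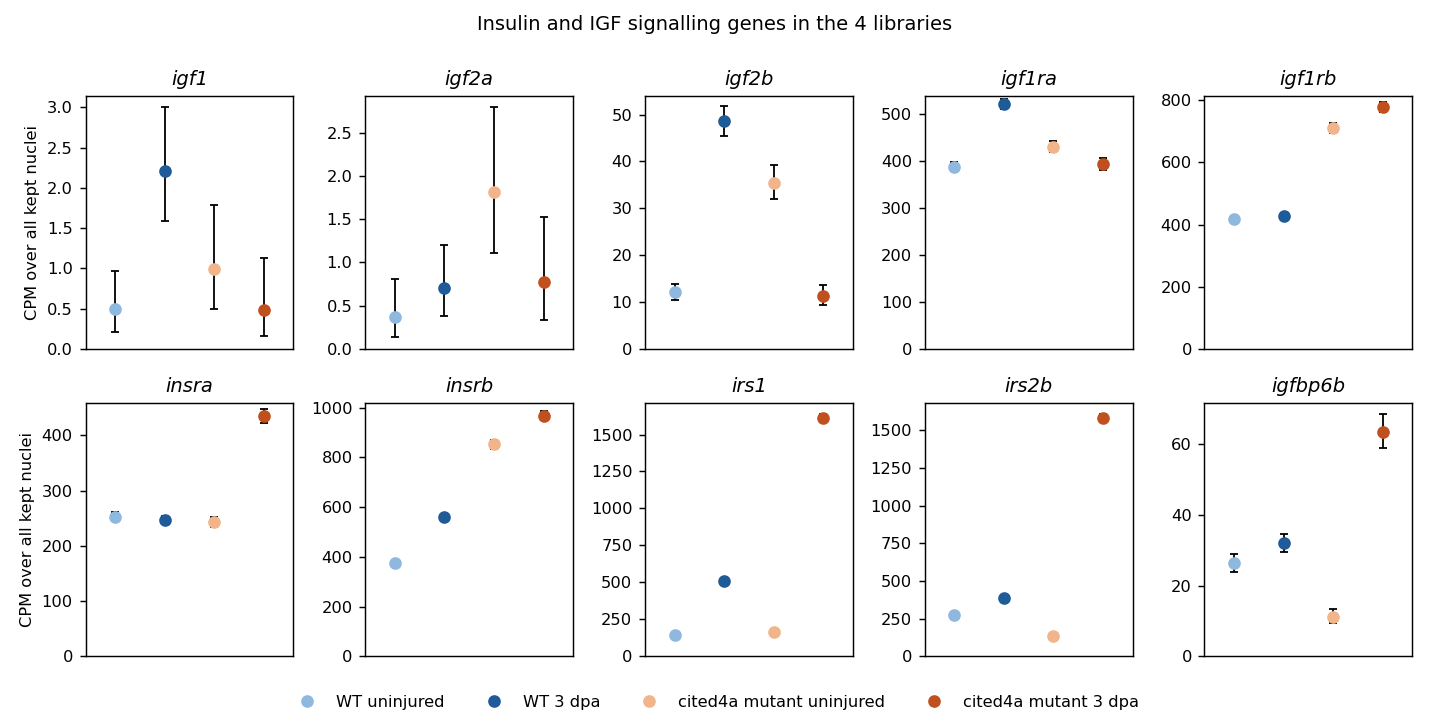
Level (CPM) of each of the 10 genes over all kept nuclei of the 4 libraries, 1 panel per gene with its own axis; bars are exact 95% Poisson intervals, which cover counting error only. *igf2b* is high in the WT 3 dpa (48.6 CPM) and mutant UI (35.5 CPM) libraries, and *irs1* (1612 CPM) and *irs2b* (1583 CPM) are high in the mutant 3 dpa library.

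*igf1* (ENSDARG00000094132), the main circulating IGF, was near the limit of detection. It gave 8, 41, 11 and 5 UMIs, which is 0.493 (0.213 to 0.971), 2.21 (1.59 to 3.00), 0.995 (0.497 to 1.78) and 0.483 CPM (0.157 to 1.13). The WT 3 dpa library was the highest, and its interval overlapped that of the mutant UI library. The 3 dpa level was 4.49 times the UI level in WT (2.08 to 11.1). The mutant 3 dpa level was 0.218 times the WT 3 dpa level (0.0673 to 0.552). Fibroblast or epicardial-like nuclei held 0, 3, 6 and 1 of its UMIs and endothelial or endocardial-like nuclei 2, 8, 0 and 0, so the source class of *igf1* was not detectable at this depth.

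*igf2a* (ENSDARG00000018643), the other copy of IGF2, gave 6, 13, 20 and 8 UMIs, or 0.370, 0.702, 1.81 and 0.773 CPM. It was highest in the mutant UI library, at 4.90 times the WT UI level, and its thinned share was at most 0.077% of nuclei in any library. With 38 UMIs over the 6 classes compared, no source class could be read for it either.

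Of the receptors, *insra* (ENSDARG00000011948), an insulin receptor copy, differed most clearly between classes. In endothelial or endocardial-like nuclei it stood at 869 (817 to 924), 682 (645 to 721), 649.9 (582 to 724) and 952 CPM (899 to 1008). In cardiomyocyte-like nuclei it stood at 149, 184, 239 and 347 CPM. The endothelial or endocardial-like level was the highest of the 6 classes in all 4 libraries, at 5.82, 3.70, 2.72 and 2.74 times the cardiomyocyte-like level. The summed cardiomyocyte markers in the same nuclei stood at 0.288, 0.249, 0.402 and 0.611 of the cardiomyocyte-like level. After thinning, 33.3%, 27.6%, 26.2% and 36.9% of endothelial or endocardial-like nuclei had an *insra* UMI, against 9.38%, 8.44%, 8.29% and 17.5% of erythrocyte-like nuclei.

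Between libraries *insra* varied less, at 253, 246, 243 and 434 CPM over all kept nuclei. The first 3 libraries lay together and the mutant 3 dpa library above them. The 3 dpa over UI ratio was 0.973 in WT and 1.78 in the mutant, and within endothelial or endocardial-like nuclei it was 0.785 (0.722 to 0.852) and 1.46 (1.30 to 1.66). After TMM scaling the mutant ratio over all kept nuclei was 2.37, past 2-fold. The endothelial or endocardial-like name covered different clusters: cluster 3 held 1353 and 1453 of these nuclei in the WT libraries, and cluster 7 held 354 and 1390 in the mutant ones. In the mutant UI library, where both clusters had nuclei, *insra* was at 496 CPM in cluster 3 and 809 CPM in cluster 7.

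*insrb* (ENSDARG00000071524), the other insulin receptor copy, had no such class. It stood at 374, 648, 937 and 1015 CPM in cardiomyocyte-like nuclei while the endothelial or endocardial-like level was 298, 455, 601 and 781 CPM. Erythrocyte-like nuclei stood above the cardiomyocyte-like level in every library, at 636, 826, 1006 and 1055 CPM, on 32, 913, 998 and 175 nuclei. Cardiomyocyte-like nuclei were highest among the 6 classes with at least 50 nuclei in each library in 3 of 4 libraries. Over all kept nuclei the level was 375, 560, 852 and 968 CPM, so both mutant libraries lay above both WT libraries, and the mutant UI level was 2.27 times the WT UI level. After TMM scaling that ratio was 1.74, and it also carries the difference of gene tables.

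*igf1rb* (ENSDARG00000034434), a copy of the IGF-1 receptor, was highest in cardiomyocyte-like nuclei among the 6 classes in all 4 libraries. Its level there was 487 (472 to 502), 647 (629 to 667), 909 (885 to 933) and 872 CPM (851 to 894), against an endothelial or endocardial-like level of 234, 221, 391 and 482 CPM. The latter values are 0.480, 0.341, 0.431 and 0.552 of the cardiomyocyte-like level, where the muscle markers stood at 0.288, 0.249, 0.402 and 0.611. Over 20 class and library combinations the interval of *igf1rb* relative to cardiomyocyte-like nuclei lay above the marker ratio in 7. Over all kept nuclei *igf1rb* stood at 419, 427, 711 and 779 CPM, again with both mutant libraries above both WT libraries, whose gene table differs. Its 3 dpa over UI ratio was 1.02 in WT, where TMM scaling turned it to 0.703, and 1.09 in the mutant.

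*igf1ra* (ENSDARG00000027423), the other IGF-1 receptor copy, was highest on average in cardiomyocyte-like nuclei, with other classes close to them. It stood at 398 (384 to 412), 642 (623 to 661), 486 (468 to 503) and 392 CPM (377 to 406) there and at 321 (252 to 404), 468 (427 to 512), 480 (427 to 537) and 393 CPM (309 to 494) in fibroblast or epicardial-like nuclei. The intervals did not overlap in the WT 3 dpa library and overlapped in the other 3 libraries. Thrombocyte-like nuclei stood at 349, 360.3, 419.96 and 307 CPM and endothelial or endocardial-like nuclei at 181, 322, 415 and 383 CPM, while macrophage-like nuclei were lower, at 155, 194, 195 and 284 CPM. Over all kept nuclei its level was 388, 522, 431 and 394 CPM. The WT 3 dpa library was highest, at 1.34 times WT UI (1.30 to 1.39), but TMM scaling turned this ratio to 0.927. TMM scaling also turned its other 3 ratios, from 0.914 to 1.21 in the mutant pair, from 1.11 to 0.849 between uninjured hearts and from 0.755 to 1.11 at 3 dpa.

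**Figure D2:**
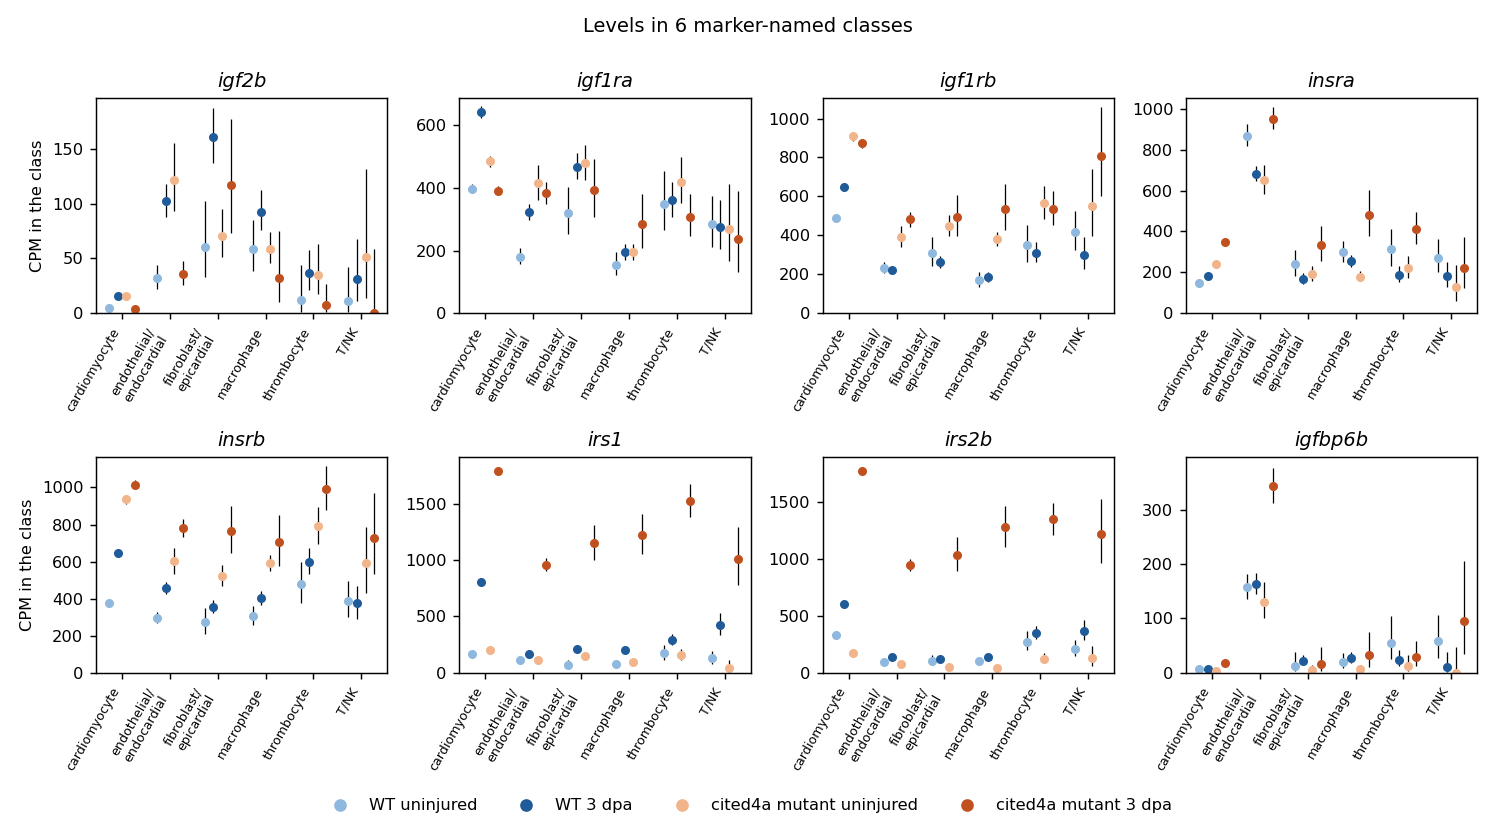
Level (CPM) of 8 of the 10 genes in the 6 cell classes with at least 50 nuclei in every library, 4 libraries per class, with exact 95% Poisson intervals; *igf1* and *igf2a* are left out for their few UMIs. *insra* and *igfbp6b* are highest in endothelial or endocardial-like nuclei in all 4 libraries, and *igf2b* is on average lowest in cardiomyocyte-like nuclei.

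The 2 adaptors differed more between libraries than any receptor did. *irs1* (ENSDARG00000054087), insulin receptor substrate 1, stood at 144, 508, 168 and 1612 CPM over all kept nuclei. *irs2b* (ENSDARG00000075282), a copy of insulin receptor substrate 2, stood at 277, 389, 134 and 1583 CPM. Both were highest in the mutant 3 dpa library, the library in which *cited4a* was also highest and *ankrd1a* lowest. The 3 dpa over UI ratio of *irs1* was 3.54 in WT (3.38 to 3.70) and 9.59 in the mutant (9.14 to 10.1). For *irs2b* it was 1.40 in WT, which TMM scaling turned to 0.968, and 11.8 in the mutant (11.2 to 12.5). The mutant UI over WT UI ratio of *irs1* was 1.17, which TMM scaling turned to 0.895. The share of nuclei with an *irs1* UMI after thinning was 6.34%, 13.6%, 7.11% and 48.6%, and 19.3%, 30.05%, 13.6% and 64.6% before it.

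In cardiomyocyte-like nuclei *irs1* stood at 166 (157 to 175), 806 (785 to 828), 204 (193 to 216) and 1788 CPM, and *irs2b* at 330 (317 to 343), 605 (587 to 624), 176 (165 to 187) and 1769 CPM. The 3 dpa over UI ratio of *irs1* in this class was 4.86 (4.58 to 5.16) for WT nuclei and 8.76 (8.26 to 9.29) for mutant nuclei. For *irs2b* the ratio was 1.84 in WT and 10.1 (9.46 to 10.7) in the mutant. In the WT 3 dpa library, *irs1* was at 748 CPM in the 455 nuclei of cluster 2, which held most WT UI cardiomyocyte-like nuclei, and at 811 CPM in the 1674 nuclei of the *ankrd1a*-led cluster 6. *ankrd1a* itself was at 9.28 and 315 CPM in those clusters, so the WT 3 dpa level of *irs1* was high in both. In the mutant pair, cluster 0 had *irs1* at 204 CPM in 89 UI nuclei and 1796 CPM in 5936 nuclei at 3 dpa. Cluster 1 had it at 200 CPM (4632 nuclei) and 1596 CPM (73 nuclei). *irs2b* stood at 226 and 1777 CPM in cluster 0 and at 175 and 1612 CPM in cluster 1. The mutant difference was thus also present within these clusters. The part of carried-over RNA in it was not tested.

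The mutant 3 dpa levels of the adaptors were high in every class. *irs1* was at 959 CPM in endothelial or endocardial-like nuclei, 1148 in fibroblast or epicardial-like, 1222 in macrophage-like and 1523 in thrombocyte-like nuclei of that library. The 3 dpa over UI ratio of *irs1* in the mutant pair was 8.31 (6.396 to 10.98) in endothelial or endocardial-like, 7.58 (5.92 to 9.77) in fibroblast or epicardial-like and 13.4 (10.5 to 17.1) in macrophage-like nuclei. That of *irs2b* was 12.7 (9.20 to 18.03), 20.7 (14.1 to 31.2) and 28.4 (20.8 to 39.3). Muscle marker RNA in that library stood at 0.611, 0.669 and 0.708 of the cardiomyocyte-like level in these classes, in each case the highest of the 4 libraries. Over 20 class and library combinations the *irs2b* level relative to cardiomyocyte-like nuclei had a median 1.02 times the marker ratio, and its interval lay above that ratio in 1. For *irs1* the median was 1.00 times over 19 combinations, with the interval above in 5. The part of carried-over muscle RNA in the adaptor levels outside cardiomyocyte-like nuclei was not tested.

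**Figure D3:**
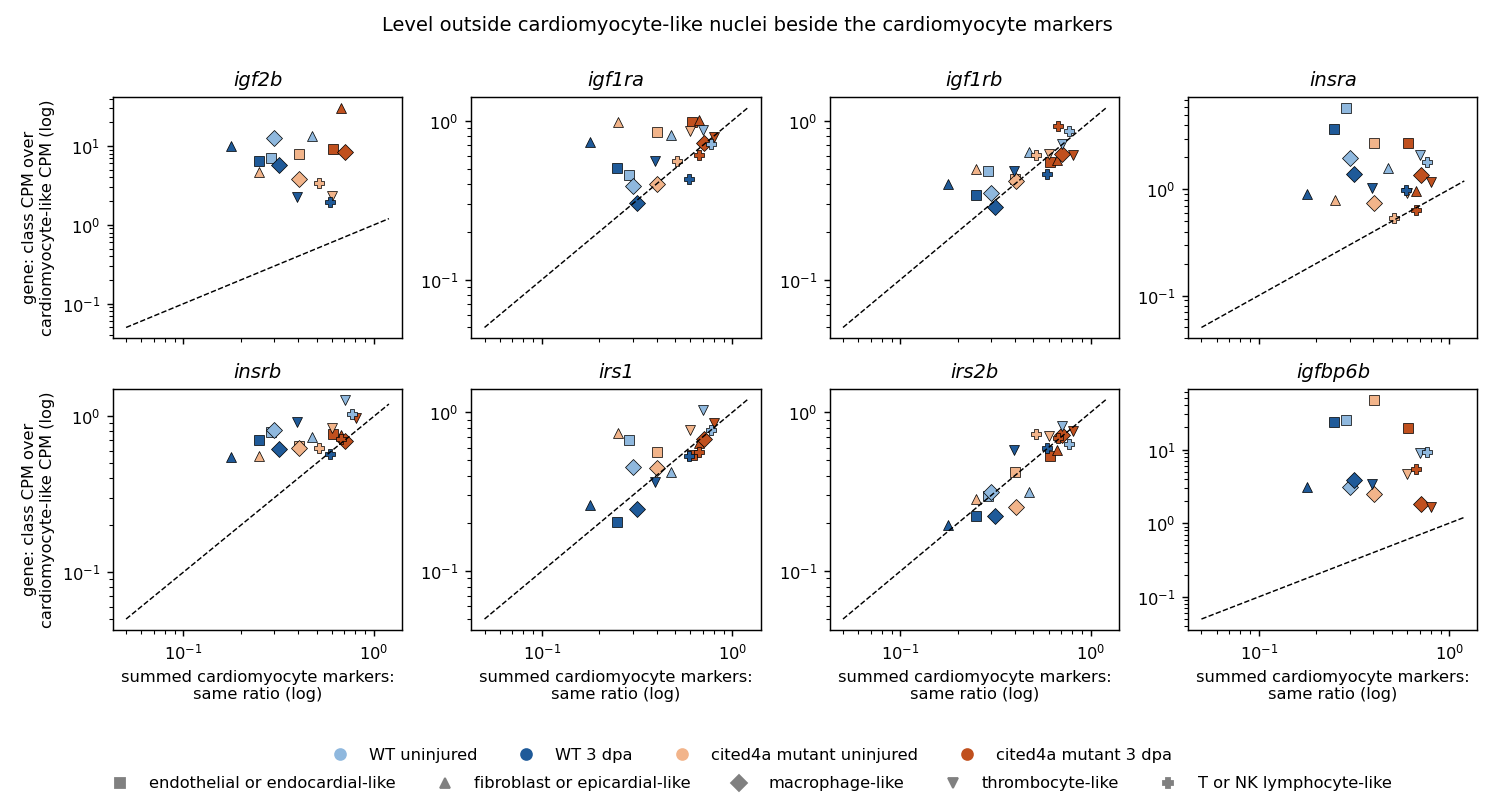
Level of the members other than *igf1* and *igf2a* in 5 classes relative to cardiomyocyte-like nuclei of the same library (vertical axis, log scale). The horizontal axis (log scale) is the summed cardiomyocyte marker level relative to the same nuclei. Each point is 1 class in 1 library with more than 3 UMIs of the member, and the dashed line marks equal ratios. *irs1*, *irs2b* and *igf1rb* lie around the line, with medians of 1.00, 1.02 and 1.09 times the marker ratio, while *igf2b*, *igfbp6b* and *insra* lie above it, with medians of 18.4, 12.2 and 2.78 times.

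*igfbp6b* (ENSDARG00000090833) is a copy of the gene for IGF-binding protein 6, which in mammals binds IGF2 in preference to IGF1. It was highest in endothelial or endocardial-like nuclei in all 4 libraries, at 158 (136 to 182), 164 (146 to 183), 131 (102 to 167) and 344 CPM (313 to 378). Cardiomyocyte-like nuclei held 6.18, 6.89, 2.76 and 17.5 CPM. The endothelial or endocardial-like level was 25.5, 23.7, 47.5 and 19.6 times as high. After thinning, 6.98%, 6.03%, 5.12% and 15.4% of endothelial or endocardial-like nuclei had a UMI, against 0%, 0.987%, 0.128% and 4.12% of erythrocyte-like nuclei. *igfbp6b* was among the 10 leading genes of cluster 7, which held most of these nuclei in the mutant libraries, although no pathway gene was used for the clustering.

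Over all kept nuclei *igfbp6b* stood at 26.4 (23.9 to 29.0), 31.9 (29.4 to 34.6), 11.2 (9.33 to 13.4) and 63.5 CPM (58.7 to 68.5). The mutant UI library was lowest, and it also had the smallest endothelial or endocardial-like share, 5.89% against 17.9%, 15.4% and 16.3%. The mutant 3 dpa level was 5.66 times the mutant UI level (4.66 to 6.91) over all kept nuclei and 2.62 times (2.02 to 3.45) within endothelial or endocardial-like nuclei. Within the class it was under 2 with a minimum of 1000 UMIs per nucleus, at 1.65, and with up to 10% mitochondrial UMIs, at 1.82. Clusters 3 and 7 held 157 and 354 nuclei of the mutant UI library, against 23 and 1390 of mutant 3 dpa. The ratio within the class therefore also compares different mixes of clusters. The mutant UI over WT UI ratio was 0.426 over all kept nuclei, or 0.684 with up to 10% mitochondrial UMIs, and 0.832 (0.620 to 1.11) within the class, an interval that holds 1. The ratio between WT libraries was 1.21 over all kept nuclei, 0.834 after TMM scaling and 1.04 (0.862 to 1.25) within the class.

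A 2-fold difference in CPM, among genes with at least 20 UMIs over the pair of libraries, was used as a rule of size. At 3 dpa against UI in WT, 3 of 9 members compared (*igf1*, *igf2b* and *irs1*) were 2-fold or more higher, where 29.2% of all genes were, and 0 were 2-fold or more lower, where 1.67% were. In the mutant pair 3 of 9 (*irs1*, *irs2b* and *igfbp6b*) were higher, against 5.67% of all genes, and 2 (*igf2a* and *igf2b*) lower, against 22%. The *igf2a* ratio there, 0.427, rested on 8 UMIs at 3 dpa and 20 in UI. Its interval, 0.163 to 1.01, holds 1. *igf2b* was thus past 2-fold in opposite directions in the WT and mutant pairs, and *irs1* past it in the same direction.

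Between genotypes in uninjured hearts, 3 of 9 members (*igf2a*, *igf2b* and *insrb*) were 2-fold or more higher in the mutant library, against 25.4% of all genes, and 2 (*irs2b* and *igfbp6b*) lower, against 9.32%. At 3 dpa, 2 of 10 (*irs1* and *irs2b*) were higher in the mutant library, against 5.83%, and 2 (*igf1* and *igf2b*) lower, against 36%. These 4 comparisons share libraries and are not independent. Those between genotypes also carry the difference of gene tables. *irs2b* was not past 2-fold between uninjured hearts when nuclei needed 1000 UMIs, at 0.522.

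TMM scaling, which sets the bulk of genes to the same level, left *igf1*, *igf2b* and *irs1* as the 3 members 2-fold or more higher in the WT pair, where 13.1% of all genes were then higher and 6.96% lower. In the mutant pair 4 members were higher, with *insra* added at 2.37, against 10.5% of all genes, and 1 lower, *igf2b*, against 12.8%. Between uninjured hearts 2 were higher (*igf2a* and *igf2b*), against 15.7%, and 2 lower (*irs2b* and *igfbp6b*), against 15.8%. At 3 dpa 6 of 10 members were 2-fold or more higher in the mutant library, against 14.6%, the added ones being *igf1rb*, *insra*, *insrb* and *igfbp6b*, and *igf1* and *igf2b* were lower, against 22%. The directions of the *igf2b*, *irs1* and *irs2b* calls over all kept nuclei were therefore the same under both scalings.

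Within cardiomyocyte-like nuclei 8 members had enough UMIs. In the WT pair 2 of them (*igf2b* and *irs1*) were 2-fold or more higher at 3 dpa, against 14% of all genes compared, and 0 lower, against 2.42%. For the mutant pair 3 (*irs1*, *irs2b* and *igfbp6b*) were higher, against 6.15%, and *igf2b* lower, against 17.4%. Between uninjured hearts *igf2b* and *insrb* were higher in the mutant nuclei, against 27.5%, and *igfbp6b* was lower, against 8.45%. At 3 dpa *irs1*, *irs2b* and *igfbp6b* were higher in the mutant nuclei, against 10.3%, and *igf2b* was lower, against 17.8%. The *insrb* ratio between uninjured hearts, 2.51, was 1.95 after TMM scaling. The *igf2b* and *igfbp6b* ratios in this class rest on 17 to 127 UMIs per library. The thinned share of cardiomyocyte-like nuclei with an *igfbp6b* UMI was 0.323%, 0.483%, 0.109% and 0.990%. It was below the erythrocyte-like share in every library but WT UI. Outside WT UI these *igfbp6b* levels could therefore not be told apart from background. In WT UI the erythrocyte-like share rested on 32 nuclei, too few to decide.

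Within endothelial or endocardial-like nuclei 8 members had enough UMIs. In the WT pair 1 of them (*igf2b*) was 2-fold or more higher at 3 dpa, against 12.4% of all genes compared, and 0 lower, against 2.66%. In the mutant pair 3 (*irs1*, *irs2b* and *igfbp6b*) were higher, against 7.81%, and *igf2b* lower, against 14.2%. Between uninjured hearts *igf2b*, *igf1ra* (2.29) and *insrb* (2.02) were higher in the mutant nuclei, against 18.2%, and 0 members lower, against 11.7%. The intervals of *igf1ra* (1.89 to 2.78) and *insrb* (1.73 to 2.36) both hold 2. TMM scaling, with factors of 0.965 in WT UI and 1.13 in mutant UI for this class, would lower both ratios. At 3 dpa *irs1*, *irs2b*, *igfbp6b* and *igf1rb* (2.18) were higher in the mutant nuclei, against 11.3%, and *igf2b* was lower, against 25%. The *igfbp6b* ratio was under 2 with CPM over all genes of each table, at 1.93, with 1000 UMIs per nucleus, at 1.39, and with classes taken from the marker UMIs of each nucleus, at 1.65. At 3 dpa the WT nuclei of this class came mostly from cluster 3 and the mutant nuclei mostly from cluster 7. *irs1* and *irs2b* were past 2-fold higher in the mutant pair over all kept nuclei and in both classes.

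**Figure D4:**
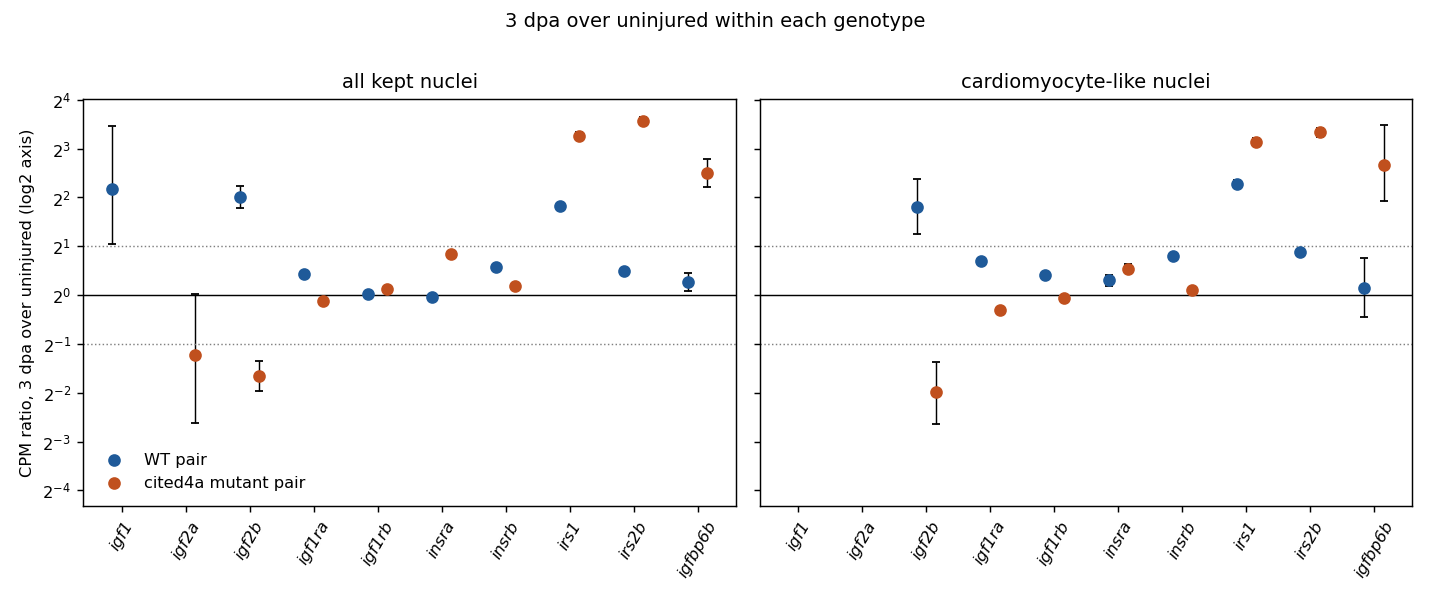
Ratio of the CPM at 3 dpa to that of uninjured hearts (log2 axis) in the WT and mutant pairs, over all kept nuclei and in cardiomyocyte-like nuclei, for members with at least 20 UMIs over the pair; bars are exact conditional binomial 95% intervals and dotted lines mark 2-fold. *igf2b* lies above the upper line in WT (4.03) and below the lower one in the mutant (0.319), and *irs1* lies above the upper line in both (3.54 and 9.59).

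A further 87 genes of the pathway, 83 of which had enough UMIs, were described in the same way. In WT, 24 were 2-fold or more higher at 3 dpa and 4 lower, and in the mutant pair 8 were higher and 10 lower. As shares of the 83, these are 28.9% and 4.82% in WT, where 29.2% and 1.67% of all genes were, and 9.64% and 12.0% in the mutant pair, where 5.67% and 22% were. The median ratio over these 83 genes was 1.24 in WT, below the 1.45 of all genes, and 0.836 in the mutant, above the 0.763 of all genes. With the members counted in, the genes past 2-fold higher in WT were 2 of 4 ligands, 4 of 9 binding proteins, 4 of 8 proteases and their inhibitors, 4 of 17 adaptors, 5 of 26 PI3-kinase and AKT genes, 6 of 16 mTOR genes and 2 of 7 FOXO genes, beside the 29.2% of all genes. Past 2-fold lower were 2 binding proteins, 1 protease or inhibitor gene and 1 PI3-kinase or AKT gene. None of the 5 receptors compared was past 2-fold in the WT or the mutant pair before TMM scaling.

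Among the pathway genes outside the 10 members, those with the largest ratios in the WT pair were *htra1a*, a secreted protease, at 9.32 (11 to 117 UMIs), and the binding proteins *igfbp5a* at 4.90 and *igfbp1a* at 4.32. The same 3 genes had the smallest ratios of this group in the mutant pair, at 0.142, 0.223 and 0.269. These rested on 45, 24 and 488 UMIs in the UI library and 6, 5 and 123 at 3 dpa. *igfbp1a*, the best counted of them, stood at 7.52, 32.4, 44.2 and 11.9 CPM, high and low in the same libraries as *igf2b*. The largest ratios of this group in the mutant pair were those of *irs2a*, the other copy of insulin receptor substrate 2, at 6.38, the glucose transporter gene *slc2a1a* at 4.82 and *pik3r3a*, a regulatory subunit of PI3-kinase, at 4.72. *irs2a* stood at 12.8, 32.6, 20.5 and 131 CPM and was, with *irs1* and *irs2b*, highest in the mutant 3 dpa library. *slc2a1a* ran the other way in WT, at a ratio of 0.412.

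Between genotypes, *igfbp1b* had the largest ratio of these non-member genes at 3 dpa, 15.4 from 8 and 69 UMIs, followed by *irs2a* at 4.03 and *pappaa*, a protease that cuts IGF-binding proteins in mammals, at 3.87. The smallest ratios of the group were those of *htra1a* at 0.0918 (0.0330 to 0.206), *igfbp5a* at 0.0942 (0.0299 to 0.228) and *stc2b*, a stanniocalcin gene, at 0.211 (0.0543 to 0.590). They rested on 117, 95 and 34 UMIs in the WT library and 6, 5 and 4 in the mutant library. In uninjured hearts *rheb*, an activator of mTOR, had the largest ratio at 6.12 from 6 and 25 UMIs, and *slc2a1a* the smallest at 0.151. *grb10a*, an adaptor that binds the insulin receptor, stood at 0.401 of the WT level in the same comparison.

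For each member, the genes with the most similar pattern were ranked by Pearson's r of log2 CPM over 30 class and library profiles, among 12445 genes; the profiles of 1 library share its depth and carried-over RNA. The pattern of *irs2b* was most like those of *slc38a4* (r = 0.96), *pparab* (0.95) and *g6pcb* (0.94), and that of *irs1* most like *peli1a* (0.94), *mapk4* (0.93) and *map3k15* (0.92). *igfbp6b* was nearest to *epas1b* (0.90) and *stx3a* (0.89), and *insra* to *ccdc187* (0.89) and *grb10a* (0.86). *si:dkey-165a24.9* was among the 3 nearest genes of both *igfbp6b* and *insra*. *igf1rb* was nearest to *cacna1g* and *tspan9a* (0.91 each), *insrb* to *fam214a* (0.92), *igf2b* to *anxa1a* (0.84) and *igf1ra* to *skib* (0.76), the weakest likeness among the 8 members with enough UMIs.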

How the data were processed

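Nuclei from WT and cited4a mutant adult hearts, uninjured or 3 dpa, were profiled with 10x 3' chemistry. The authors deposited 1 matrix of UMI counts per group with its barcodes and gene table. Per the submitters' processing notes, Cell Ranger 7.0.0, the GRCz11 build, R 4.2.0 and Seurat 4.3.0 were used; the gene annotation was not given in the sources used here. Nuclei needed 500 UMIs or more, of which no more than 5% mitochondrial, and the median kept nucleus held 1725 (WT UI), 1052 (WT 3 dpa), 973 (mutant UI) and 950.5 UMIs (mutant 3 dpa). CPM used the shared symbols, which held 99.9%, 100.0%, 89.2% and 90.7% of the kept UMIs. Intervals are exact Poisson (levels), Clopper-Pearson (shares) or conditional binomial (ratios), and amplified molecules are counted once. The doublet caller's own threshold marked 0 nuclei in every library, so the top 6% by score were removed, which left 7689, 9878, 9375 and 8650 nuclei. These were clustered (scanpy 1.11.5, leidenalg 0.10.2, 2000 variable genes without mitochondrial and pathway genes, 30 components, 15 neighbours, resolution 1, seed 0) and named from marker lists. The cardiomyocyte naming rule was revised after the clusters were seen, in 3 versions that lowered the required marker excess (log2) from 1 to 0.3 to 0.1, and the last was kept because it named similar nuclei in each clustering; that stability is therefore no independent support. TMM scaling used edgeR 4.0.16 in R 4.3.3, and the ratio step was checked on simulated data. Genes outside the members were taken by rule, as the 3 largest and 3 smallest ratios past 2-fold per comparison. The 3 most similar genes were taken per member. Not all of the genes taken by these rules are named in the text. The members and lists were chosen with earlier results of these data known. Alternatives covered UMI, mitochondrial and minimum-count limits, TMM, a pseudocount of 10 CPM, the gene set, the clustering and the naming.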

Additional observations from a re-analysis of the deposited data

Results flagged for a closer look

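The ratio of *igf2b* between 3 dpa and uninjured hearts ran in opposite directions in the 2 genotypes. Over all kept nuclei the mutant ratio divided by the WT ratio was 0.0791, in cardiomyocyte-like nuclei it was 0.0727 and in endothelial or endocardial-like nuclei 0.0916. The cardiomyocyte-like level could not be told apart from background, and the mutant ratio in endothelial or endocardial-like nuclei also compares different mixes of clusters. Fibroblast or epicardial-like nuclei did not show opposite directions, with ratios of 2.64 in WT and 1.65 (0.942 to 2.81) in the mutant. With 1 library per group the difference was not tested. *ankrd1a* and the macrophage-like share of nuclei ran in opposite directions in the same libraries, and their part in the *igf2b* ratios was not tested. The mutant direction rests on the labels of the mutant pair, and whether its matrices match them was not tested.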

How the results depend on the processing

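No paired analysis was possible because the samples of a group lie in 1 matrix whose barcodes do not name them; leaving out a replicate was not run for the same reason. Of 166 recomputed values of ratios past 2-fold, 149 stayed past it, and none of the recomputed ratios past 2-fold changed direction. The 17 others were mostly of *igf1*, *igf2a*, *igfbp6b* and *insrb*. Ratios were recomputed over all kept nuclei and in the class with the highest level of a member, so calls in other classes are not covered. Of all recomputed values, 173 ratios, 117 levels and 70 shares were counted as moved from the value given. Those counted as the same were 315, 227 and 50. The class with the highest level was the same in 7 of 7 alternatives except for *igf1ra* and *irs1* (6, both with classes taken from the marker UMIs of each nucleus) and *igf2a* (6). TMM scaling moved the median log2 ratio of all genes by -0.54 (WT pair), 0.41 (mutant pair), -0.39 (uninjured) and 0.56 (3 dpa), and the share of genes called higher among those called from 94.6% to 65.3%, 20.5% to 45.2%, 73.1% to 49.9% and 13.9% to 39.8%.

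Counts past 2-fold moved as follows. Among these alternatives, shares of all genes were computed for TMM and cardiomyocyte-like nuclei only, so the other counts have no background. In the WT pair 29.2% of all genes higher became 13.1% with TMM and 14% in cardiomyocyte-like nuclei. In the mutant pair 22% lower became 12.8% and 17.4%. Between uninjured hearts 25.4% higher became 15.7% with TMM. At 3 dpa 5.83% higher became 14.6% with TMM, and 36% lower became 22%. In WT, 27 of the 92 pathway genes compared were higher. This became 12 with TMM, 9 with the pseudocount and 16 of 87 in cardiomyocyte-like nuclei, and 4 lower became 2 with the pseudocount. In the mutant pair, 2 members lower became 1 with 1000 UMIs per nucleus, TMM, the pseudocount, at least 100 UMIs per pair or cardiomyocyte-like nuclei. Pathway genes lower in that pair went from 12 to 7 with TMM, 3 with the pseudocount, 7 with 100 UMIs and 5 in cardiomyocyte-like nuclei. Between uninjured hearts, 2 members lower became 1 with 1000 UMIs, 10% mitochondrial UMIs or cardiomyocyte-like nuclei and 0 with the pseudocount. Pathway genes higher there went from 24 to 15 with TMM and 11 with the pseudocount, and those lower from 9 to 4 with the pseudocount. At 3 dpa between genotypes, 2 members higher became 6 with TMM, and 2 lower became 1 with 1000 UMIs, the pseudocount, 100 UMIs or cardiomyocyte-like nuclei. Pathway genes higher there went from 15 to 24 with TMM and 8 with the pseudocount, and those lower from 18 to 9 with TMM, 3 with the pseudocount and 6 in cardiomyocyte-like nuclei. The pseudocount pulls low genes towards a ratio of 1 by construction; the causes of the other moves were not tested.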

Other observations

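The levels of 3 members in unnamed clusters are given here, chosen after their values were seen. Cluster 10, led by *bcam*, *nrg3b* and *smoc1*, held 277 nuclei of the WT UI library, 380 of WT 3 dpa, 309 of mutant UI and 219 of mutant 3 dpa. It was not named cardiomyocyte-like because its mural or smooth muscle score within libraries, 0.943, passed the limit of 0.9. Its cardiomyocyte marker excess (log2), 0.611, was larger than the 0.365 of the cardiomyocyte-like cluster 0. Erythrocyte-like clusters 9 and 13 also exceeded cluster 0, at 0.486 and 0.462. Whether cluster 10 holds muscle nuclei therefore cannot be told from this excess. The *igf1ra* level of cluster 10 was 1061, 1298, 699 and 659 CPM, above the cardiomyocyte-like level in each library. Its *igf1rb* level of 171, 185, 207 and 450 CPM was below that level. Cluster 19, with *sele* and *il11a* among its leading genes, held 118 nuclei, all from the mutant UI library. Its *igf2b* level was 622 CPM (interval 471 to 806) from 57 UMIs, above that of every named class in any library.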
